A study of Bos taurus with 106 samples.

Results

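The complement genes C1R, C1S, C2, C4A and SERPING1 were followed in liver of Holstein cows from the start of the dry period into lactation. They were chosen by symbol: every array element whose single gene symbol was one of these was taken, which gave 5 of 8208 elements, 1 element per gene. All 5 were among the 8061 elements tested and had a value on each of the 53 cow-days, a cow-day being the liver of 1 cow on 1 day. The study compared 2 planes of nutrition before calving in 8 cows, all offered a diet of 1.60 Mcal/kg through a dry period of 65 days. Restricted cows (4) took in about 80% of the NRC requirement and ad libitum cows (4) about 120%. Samples date from days -65, -30, -14, 1, 14, 28 and 49, counted from calving. Day -65 had 3 ad libitum and 4 restricted cows, day 49 had 2 and 4, and the other days had 4 and 4. The labels give no ages, and how the reference was pooled is stated only as a mixture of tissues without liver.

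The complement system is a cascade of plasma proteins that tags microbes and immune complexes. In the classical pathway, C1q binds to antibody, and the proteases C1r and C1s, carried with it in the C1 complex, become active in turn. C1s cleaves C4 and C2, whose fragments join into the enzyme that cleaves C3. C1 inhibitor, the product of SERPING1, is a serpin that inactivates C1r and C1s and also holds back proteases of the contact system. Hepatocytes make most circulating C1r, C1s, C2, C4 and C1 inhibitor, whereas C1q comes largely from macrophages. In the bovine gene order C1R and C1S are next to each other on chromosome 5, C2 and C4A lie 6 places apart on chromosome 23, and SERPING1 is on chromosome 15. Coordinates are not given because the build of the array was not stated.

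All values are log2 ratios of liver over the reference, each array centred on its median, so a value says how far a transcript exceeds its own level in the reference relative to the median element of the array. Levels of different genes are not set against each other. Each cow-day was the mean of 2 arrays of opposite dye orientation. In bulk liver, fewer cells of a type and less RNA per cell cannot be told apart. Both hepatocyte markers the array carried, APOA1 and TF, had a mean log2 ratio above 0 (1.00 and 4.65), 7 of 7 endothelial and 8 of 9 macrophage markers were above 0, and 5 of 5 stellate cell and fibroblast markers were below 0. Agreement between both orientations of a cow-day was lower on days -14, 1 and 14. With each element's mean dye effect taken out, their mean correlation over elements was 0.779, 0.745 and 0.774 there and 0.833 to 0.87 on the others. By this measure ad libitum cows averaged 0.673 and restricted cows 0.816 on day 1. Without that step the mean correlation was 0.531, 0.444 and 0.479 on days -14, 1 and 14 and 0.666 to 0.702 on the others.

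C1R, C1S and SERPING1 took a course with a trough around calving, and C4A showed no change over days that passed the test. Over both feeding levels C2 was highest on day -65, the start of the dry period. By feeding level this held for ad libitum cows only (mean 5.44, n = 3). Restricted cows averaged 4.14 on day -65 and were highest on day -14 (4.41). C1R had means of 6.17, 5.89, 5.44, 5.02, 5.48, 6.01 and 5.82 over the 7 days in order. C1S had means of 5.95, 5.85, 5.04, 4.70, 5.24, 5.74 and 5.68. SERPING1 had means of 3.95, 3.72, 2.55, 2.04, 2.59, 3.85 and 3.50. The lowest day mean of each of these 3 genes fell on day 1. C2 had means of 4.70, 3.45, 4.08, 3.77, 4.04, 3.81 and 3.57, and C4A had means of 3.10, 2.74, 2.86, 2.60, 2.74, 2.94 and 2.58. In limma's F test over days 4 of the 5 passed, at adjusted p-values of 1.16e-10 (SERPING1), 2.11e-06 (C1R), 4.13e-06 (C2) and 1.11e-05 (C1S), and C4A did not (adjusted p = 0.178). Of all elements, 43.4% passed, so a change over days was common on this array. Without centring of the arrays C1R (adjusted p = 0.221) and C1S (adjusted p = 0.0784) did not pass. C4A passed in 4 of 21 alternatives, among them the fit without restricted cow 6952 (adjusted p = 0.0122).

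**Figure D1:**
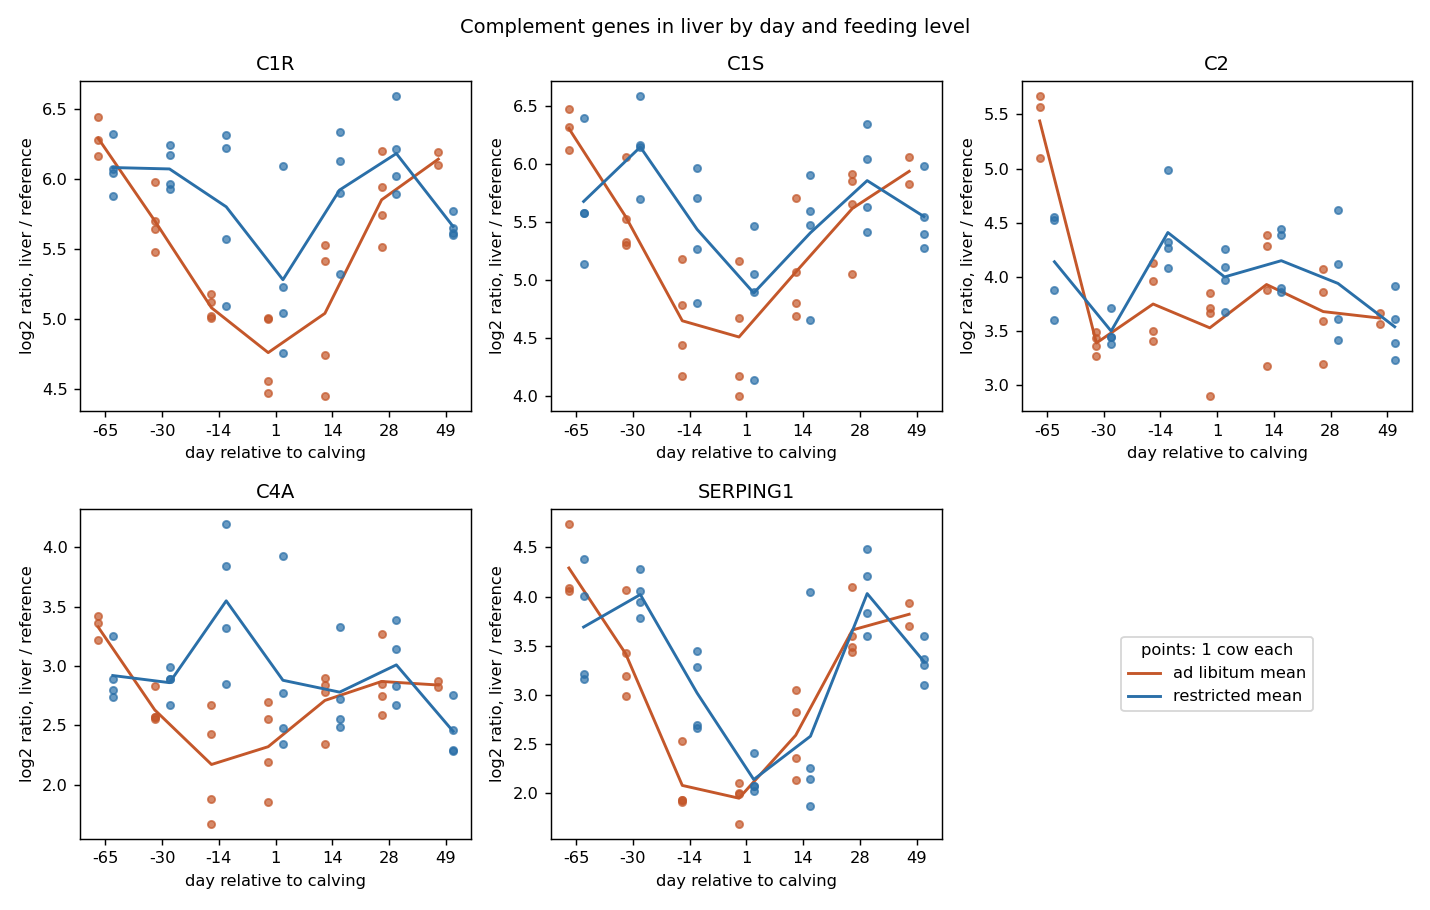
Log2 ratio of liver over reference (vertical axis, scaled separately for each gene) by day relative to calving (horizontal axis, days evenly spaced); points are single cows and lines join the means of ad libitum and restricted cows. C1R, C1S and SERPING1 are lowest on day 1, and the feeding levels of C4A are farthest apart on day -14. The mean of C2 is highest on day -65 in ad libitum cows (5.44) and on day -14 in restricted cows (4.41).

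The proteases of the C1 complex and their inhibitor were lower on days -14, 1 and 14 than on days -30 and 28. These sets of days were picked with earlier results of these data known. SERPING1 ranged from 1.69 to 4.05 with a median of 2.14 over the 24 cow-days of days -14, 1 and 14, and from 2.99 to 4.48 with a median of 3.81 over the 16 cow-days of days -30 and 28. Only 4 of the 24 values reached the lowest of the 16. The mean of days -14, 1 and 14 was below that of days -30 and 28 by 1.39 ± 0.14 (SE) on the log2 scale, 2.62-fold lower (limma, adjusted p = 7.27e-11), and it was below it in 8 of 8 cows, by 0.87 to 2.05.

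C1S, whose protease cleaves C4 and C2, ranged from 4.00 to 5.97 with a median of 4.98 on days -14, 1 and 14, and from 5.05 to 6.59 with a median of 5.78 on days -30 and 28. It was 1.75-fold lower, a difference of -0.80 ± 0.14 (SE, adjusted p = 8.62e-06). C1R, whose protease activates C1s, ranged from 4.45 to 6.33 with a median of 5.15, against 5.48 to 6.59 with a median of 5.95. It was 1.56-fold lower, a difference of -0.64 ± 0.11 (SE, adjusted p = 5.78e-06). Both were lower in 8 of 8 cows, but in the least affected cow the difference was only -0.07 for C1R and -0.21 for C1S. A value below that of the other days in 8 of 8 cows was found for 7.74% of elements.

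C2 and C4A encode the substrates of C1s. C2 ranged from 2.90 to 4.99 with a median of 3.96 on days -14, 1 and 14, and from 3.20 to 4.62 with a median of 3.47 on days -30 and 28. It was higher by 0.33 ± 0.12 (SE, adjusted p = 0.0167) in 7 of 8 cows, but after scaling all arrays to equal spread the sign turned (-0.39, adjusted p = 0.0157). The C2 call was also lost without ad libitum cow 7161 (adjusted p = 0.0687) or 7187 (adjusted p = 0.133), or restricted cow 7045 (adjusted p = 0.0904), and with liver in Cy3 arrays alone (adjusted p = 0.0921). C4A differed by -0.11 (95% interval -0.34 to 0.12, adjusted p = 0.465), and its call and sign changed with the scaling: it was higher without centring (0.39, adjusted p = 0.0313) and lower with equal spread (-0.66, adjusted p = 3.38e-06). Of all elements 44.8% passed in this comparison, 23.8% higher and 21% lower, so the 4 members that passed, 3 of them lower, are to be read against a large background.

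**Figure D2:**
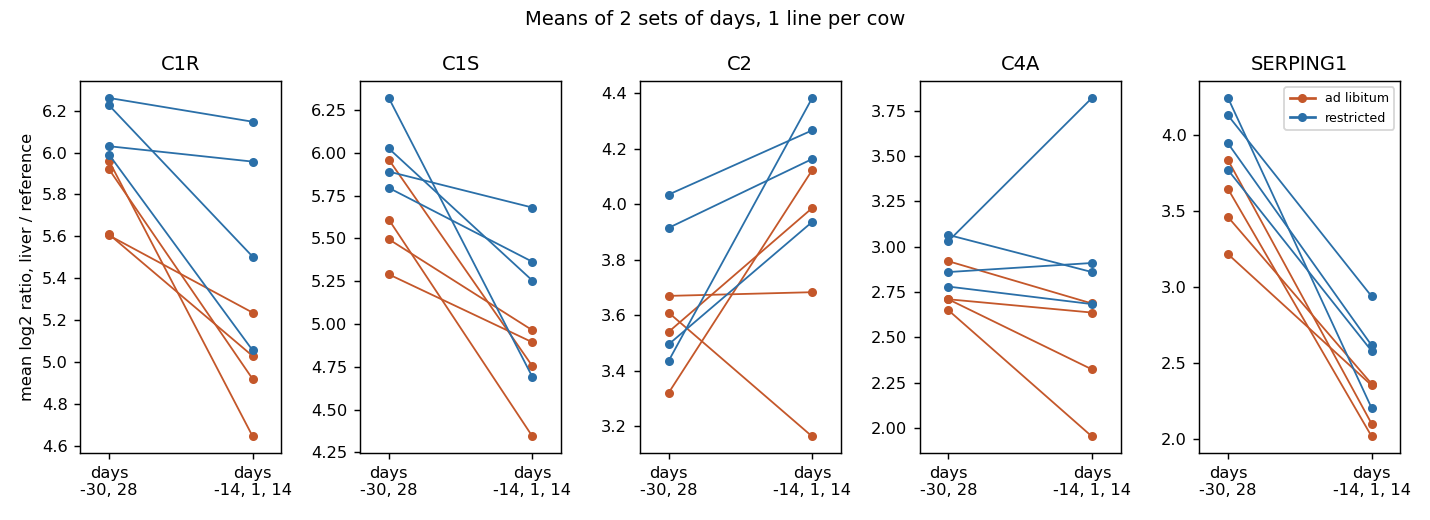
Mean log2 ratio of each cow over days -30 and 28 (left) and over days -14, 1 and 14 (right), with a line per cow coloured by feeding level and a separate vertical scale for each gene. All 8 lines fall for C1R, C1S and SERPING1, 7 of 8 rise for C2, and 6 of 8 fall for C4A.

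The trough of SERPING1 and C1S was seen with either dye on the liver cDNA. For C1R with liver in Cy5, day 1 was lowest (5.46), but the mean of day -14 (6.09) was above that of day -30 (5.97). In each of these genes the difference between the 2 sets of days was larger in size with Cy3, a contrast that was not tested. With liver in Cy3 the difference was -1.67 for SERPING1, -1.10 for C1S and -0.97 for C1R, lower in 8 of 8 cows each. With liver in Cy5 it was -1.11 for SERPING1 (8 of 8 cows), -0.51 for C1S (7 of 8) and -0.31 for C1R (5 of 8). Values with liver in Cy5 exceeded those with liver in Cy3 by 1.37 ± 0.85 (SD, n = 8) for SERPING1 on day 14, against 0.59 ± 0.56 (SD, n = 8) on day 28. For C1R they did so by 1.30 ± 0.73 (SD, n = 8) on day -14, against 0.16 ± 0.27 (SD, n = 8) on day -30. The part of this gap, and of the lower agreement between orientations on days -14, 1 and 14, in the troughs was not tested beyond these values. SERPING1 passed in 21 of 21 alternatives (-1.96 to -0.90). C1R and C1S passed in 20 of 21 each, and did not pass without centring, where the differences were -0.15 (adjusted p = 0.371) and -0.31 (adjusted p = 0.0879). Array medians lay between -1.69 and 1.80 before centring.

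**Figure D3:**
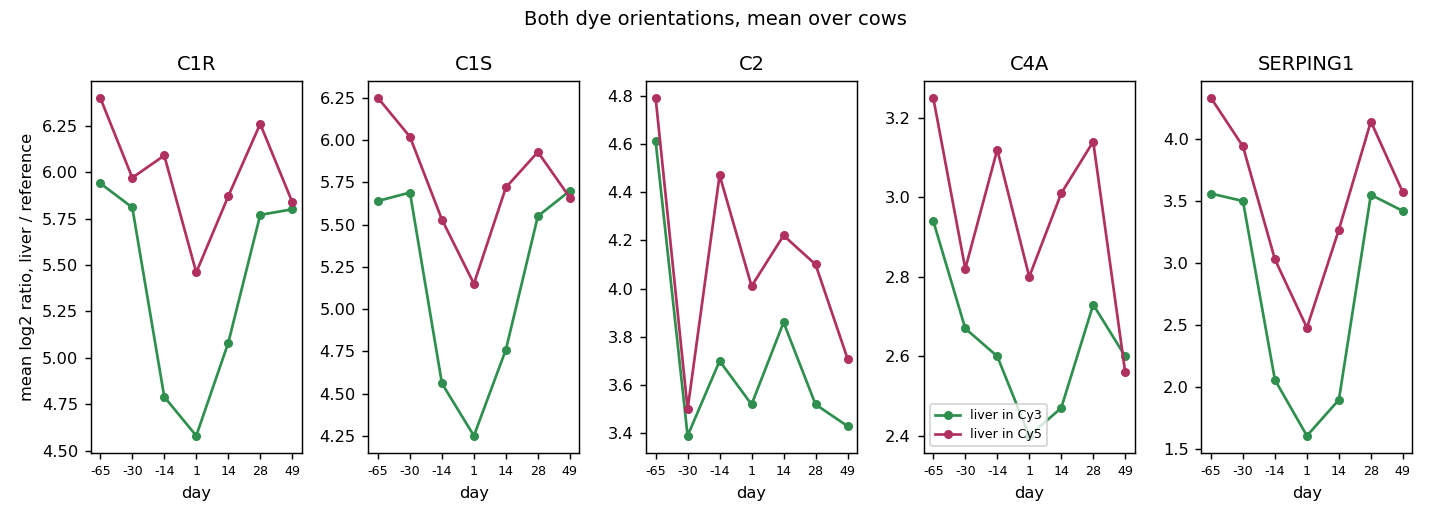
Mean log2 ratio of liver over reference by day (horizontal axis, days evenly spaced) for arrays with liver in Cy3 and for arrays with liver in Cy5, with a separate vertical scale for each gene. The trough of C1S and SERPING1 is present in both orientations and deeper with liver in Cy3. C1R is lowest on day 1 in both, but with liver in Cy5 its mean on day -14 lies above that on day -30.

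Between days -30 and -14 SERPING1, C1S and C1R fell. On day -30 SERPING1 ranged from 2.99 to 4.28 (median 3.86, n = 8) and on day -14 from 1.91 to 3.45 (median 2.59, n = 8). It fell by 1.17 ± 0.21 (SE, adjusted p = 5.09e-05) in 8 of 8 cows. C1S fell by 0.81 ± 0.21 (SE, adjusted p = 0.00324) in 8 of 8 cows, and C1R fell by 0.45 ± 0.16 (SE, adjusted p = 0.0323) in 6 of 8. C2 rose by 0.64 ± 0.18 (SE, adjusted p = 0.00563) in 8 of 8 cows, a difference of 0.00 after scaling to equal spread, and C4A differed by 0.12 ± 0.18 (SE, adjusted p = 0.647). Over all elements 33.5% passed in this step, 19.5% as increases and 14% as decreases. The C1R step passed in 11 of 21 alternatives: it was -0.03 without centring (adjusted p = 0.927), turned to 0.12 with liver in Cy5 alone, and was -0.37 with the agreement of orientations as a covariate (adjusted p = 0.124), -0.44 without cow-days of agreement under 0.7 (adjusted p = 0.0514) and -0.36 with array weights (adjusted p = 0.0672). It also did not pass without any one of ad libitum cows 6886 (adjusted p = 0.103), 7050 (adjusted p = 0.06) and 7187 (adjusted p = 0.0631) or restricted cows 6877 (adjusted p = 0.0862) and 7105 (adjusted p = 0.126). C2 passed in 18 and C1S in 19 of 21.

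From day 14 to day 28 SERPING1 rose by 1.26 ± 0.21 (SE, adjusted p = 7.07e-05), from a range of 1.87 to 4.05 (median 2.31) to 3.44 to 4.48 (median 3.72), in 8 of 8 cows. The day 14 value of 4.05 was that of restricted cow 6952, and the other 7 cows lay at or below 3.05. C1R rose by 0.54 ± 0.16 (SE, adjusted p = 0.0315) in 6 of 8 cows, a call that was lost without ad libitum cow 6886 (adjusted p = 0.182) or 7050 (adjusted p = 0.18) or restricted cow 6877 (adjusted p = 0.0795) or 7105 (adjusted p = 0.11). The C1R difference was 0.06 without centring (adjusted p = 0.81), 0.14 with quantile normalization (adjusted p = 0.568), 0.39 with liver in Cy5 alone (adjusted p = 0.287) 0.44 with the agreement covariate (adjusted p = 0.158) and 0.56 without cow-days of agreement under 0.7 (adjusted p = 0.0543), and it passed in 12 of 21 alternatives. C1S differed by 0.50 ± 0.21 (SE, adjusted p = 0.155), and by 0.54 ± 0.21 (SE, adjusted p = 0.332) between days 1 and 14, so no single step of its return passed in the main fit. Its step from day 14 to 28 ran from 0.03 to 1.74 over 21 alternatives and passed in 3. These were equal spread (1.74, adjusted p = 2.82e-05), liver in Cy3 alone (0.79, adjusted p = 0.00627) and array weights (0.64, adjusted p = 0.0328). Of all elements 8.62% passed between days 14 and 28 in the main fit, 3.71% as increases. No member passed between days -14 and 1 (0.397% of elements passed), between days 1 and 14 (0.707%), between days 28 and 49 (0.0124%) or between days -30 and 28 (0.347%). In the last of these the differences were 0.13 for C1R (95% interval -0.21 to 0.46), -0.11 for C1S (-0.54 to 0.32) and 0.13 for SERPING1 (-0.30 to 0.56).

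C2 stood apart in the early dry period. On day -65 it measured 5.67, 5.10 and 5.57 in ad libitum cows 6886, 7161 and 7187, and 4.55, 4.53, 3.88 and 3.60 in restricted cows 6877, 6952, 7045 and 7105. On day -30 it lay between 3.27 and 3.71 in all 8 cows. It fell by 1.35 ± 0.19 (SE), 2.54-fold, in 6 of the 7 cows measured on both (limma, adjusted p = 4.47e-05), and restricted cow 7105 was the exception. C2 had the smallest p of all elements and was the only decrease among the 9 elements that passed (0.112%). The call held in 21 of 21 alternatives. The other members differed by -0.38 to -0.14, and none of them passed.

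Feeding level was compared on each day and as a mean per cow. The labels place the whole dry period under the assigned feeding, and day -65 is its start. On that day all 3 ad libitum values of C2 lay above all 4 restricted values, a mean difference of 1.30 ± 0.28 (SE, 2.47-fold). No element passed in limma on day -65 (0%, with 285 at an unadjusted p under 0.05 and an adjusted p of 0.0935 for C2), and C2 had the second smallest p. With array weights C2 passed there (1.54, adjusted p = 0.00643). A complete separation with ad libitum higher was found for 1.8% of elements. A starting difference between the cows cannot be told apart from feeding on this day.

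On day -14 C4A, whose protein gives the C4b part of the C3-cleaving enzyme, measured 1.67, 1.88, 2.67 and 2.43 in ad libitum cows 6886, 7050, 7161 and 7187. It measured 2.85, 4.20, 3.84 and 3.32 in restricted cows 6877, 6952, 7045 and 7105. The groups did not overlap, and ad libitum was lower by 1.39 ± 0.25 (SE), 2.62-fold (limma, adjusted p = 0.00199). C4A was the sixth element in order of p among 8061. SERPING1 did not overlap either: it measured 1.93, 1.91, 2.53 and 1.93 in ad libitum and 3.28, 2.69, 3.45 and 2.66 in restricted cows, a difference of -0.94 ± 0.30 (SE, adjusted p = 0.0515). C1R (-0.71 ± 0.24, SE, adjusted p = 0.059), C1S (-0.79 ± 0.30, SE, adjusted p = 0.105) and C2 (-0.66 ± 0.25, SE, adjusted p = 0.104) overlapped and did not pass, and with equal spread their differences turned to 0.38, 0.19 and 0.14. On this day 6.08% of elements passed, 5.14% with ad libitum lower, and in 5.43% the groups were separate with ad libitum lower. This background was unstable: the 490 elements that passed became 51 without ad libitum cow 7050, 101 without 6886, 66 without restricted cow 7105, 238 without 6952 and 1851 without 6877.

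The C4A call on day -14 was lost after scaling to equal spread (-0.66, adjusted p = 0.161) and with liver in Cy3 alone (-1.31, adjusted p = 0.0611), and it held without any one cow. SERPING1 passed without ad libitum cow 7161 (-1.09, adjusted p = 0.0469) or restricted cow 6952 (-1.05, adjusted p = 0.0178), and C1R passed without restricted cow 6877 (-0.95, adjusted p = 0.00334). On the same day the mean correlation between orientations, with the dye effect taken out, was 0.741 for ad libitum cows and 0.817 for restricted cows. Its part in the difference was not tested. Of the 4 measured genes within 8 places of C2 or C4A on chromosome 23 none passed for feeding level on day -14, with ATF6B at -0.25 and EHMT2 at 0.28. Near C1R and C1S on chromosome 5, 2 of 5 passed (C1RL at -0.68 and PTPN6 at -0.61). Near SERPING1 on chromosome 15, 1 of 6 did (RTN4RL2 at -0.78), and 6.08% of all elements passed. In the comparison of days -14, 1 and 14 with days -30 and 28 all 4 on chromosome 23 passed, ATF6B (0.31) and VARS1 (0.21) higher and EHMT2 (-0.35) and NEU1 (-0.53) lower. There 1 of 5 on chromosome 5 (C1RL at 0.90) and 1 of 6 on chromosome 15 (MED19 at 0.19) passed, against 44.8% of all elements.

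**Figure D4:**
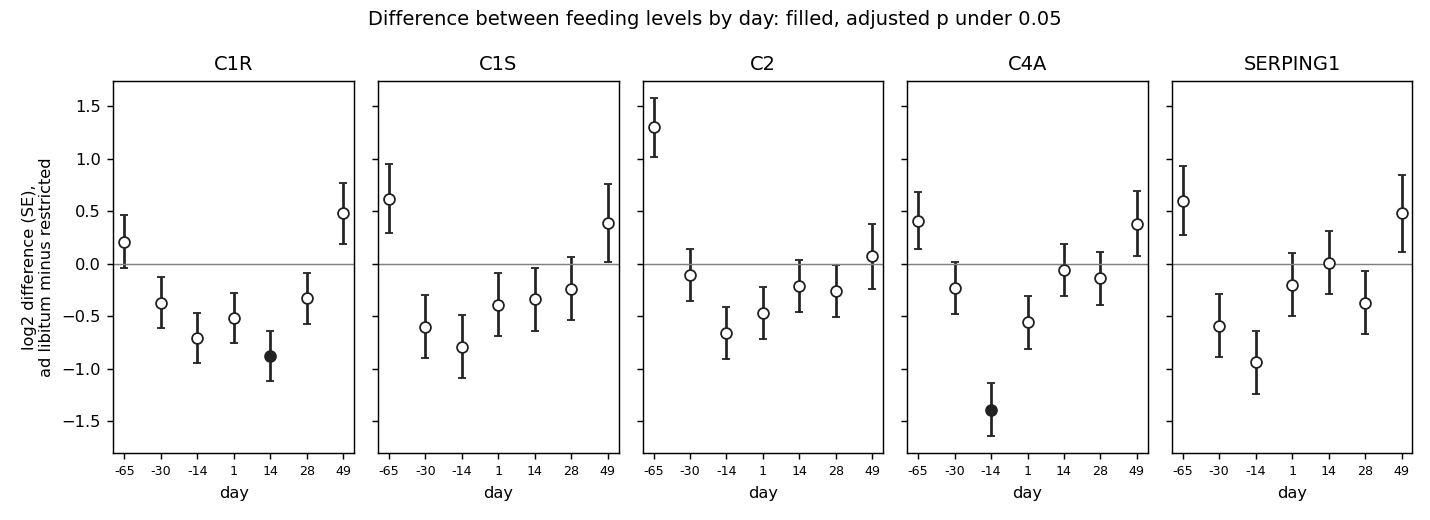
Difference of ad libitum minus restricted cows on the log2 scale with its SE (vertical axis) by day (horizontal axis, days evenly spaced); filled points had an adjusted p under 0.05 in limma. C4A on day -14 and C1R on day 14 are filled, and on days -30, -14, 1 and 28 all 5 genes lie below 0 with arrays centred only. With equal spread C1R, C1S and C2 turned above 0 on day -14. Over all alternatives, values above 0 also occurred on day -30 for C1R (up to 0.14) and C2 (up to 0.19). They occurred on day 1 for SERPING1 (up to 0.15) and on day 28 for C1S, C2 and C4A (up to 0.06, 0.05 and 0.07).

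On day 14 C1R measured 4.45, 4.74, 5.41 and 5.53 in ad libitum cows 6886, 7050, 7161 and 7187, and 5.32, 6.13, 6.33 and 5.90 in restricted cows 6877, 6952, 7045 and 7105. The groups overlapped through cow 6877. Ad libitum was lower by 0.88 ± 0.24 (SE, adjusted p = 0.00806), on a day when 15.3% of elements passed, 3.66% with ad libitum lower. Without ad libitum cow 6886, restricted cow 7045 or restricted cow 7105 the 1230 elements that passed became 765, 333 and 601. The call was lost without ad libitum cow 6886 (-0.69, adjusted p = 0.0799) or restricted cow 7045 (-0.75, adjusted p = 0.0665), and under each other scaling tried, where the difference was -0.69 without centring, -0.51 with equal spread and -0.28 with quantile normalization. The other 4 genes differed by -0.34 to 0.01. On day 1, when 10.7% of elements passed, no member did. Those 865 elements became 320 without ad libitum cow 6886, 21 without 7161, 3 without 7187, 528 without restricted cow 6952 and 43 without 7045. C1R came to -0.52 ± 0.24 (SE, adjusted p = 0.173), and it passed without restricted cow 6877 (-0.69, adjusted p = 0.0352). On days -30, 28 and 49 no element passed in limma (0%), and 77, 93 and 48 had an unadjusted p under 0.05. On day 49 both ad libitum cows lay above all 4 restricted cows in C1R, C4A and SERPING1, by mean differences of 0.48, 0.38 and 0.48, and such a separation was found in 7.92% of elements.

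Averaged per cow over days -30 and -14, all 5 genes were lower in ad libitum cows, a direction that turned for C1R (0.26), C1S (0.07) and C2 (0.17) after scaling to equal spread. In limma 0 of 8061 elements passed, and 1050 had an unadjusted p under 0.05. C4A averaged 2.40 ± 0.27 in ad libitum cows and 3.21 ± 0.25 in restricted cows (SD, n = 4 each), a difference of -0.81 (exact permutation p = 0.0286, the smallest that 4 against 4 allows, adjusted limma p = 0.284). SERPING1 was 2.75 ± 0.19 and 3.52 ± 0.21 (SD, n = 4 each), a difference of -0.77 with the same exact permutation p of 0.0286. C1R differed by -0.54 and C2 by -0.39, also without overlap, and C1S by -0.69 with overlap (exact permutation p = 0.0857). The 2 groups were separate with ad libitum lower in 5.31% of elements. These 4 separate genes were measured in the same 8 livers and are not independent of each other.

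Averaged over days 1, 14 and 28, C1R averaged 5.21 ± 0.18 in ad libitum cows and 5.79 ± 0.37 in restricted cows (SD, n = 4 each), a difference of -0.58 (exact permutation p = 0.0286, adjusted limma p = 0.0664). Separate groups with ad libitum lower were found in 4.01% of elements. C1R passed without restricted cow 6877 (-0.72, adjusted p = 0.0124), and 10.5% of all elements passed in this comparison. The other 4 genes differed by -0.32 to -0.19 (exact permutation p from 0.171 to 0.629). The depth of the trough around calving was not shown to differ between feeding levels: SERPING1 was lower by 1.34 in ad libitum and by 1.44 in restricted cows, a difference of 0.11 (95% interval -0.45 to 0.66), and 0% of elements passed in limma (1360 at an unadjusted p under 0.05).

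The course over days was tested for a difference between feeding levels with an interaction F test, which 0.806% of elements passed. C2 (adjusted p = 0.0442) and C4A (adjusted p = 0.0446) passed, close to the threshold. Both calls were lost without any one of ad libitum cows 6886, 7050, 7161 and 7187 or restricted cows 7045 and 7105, with adjusted p-values of 0.112 to 0.286 for C2 and 0.129 to 0.303 for C4A. Without restricted cow 6952 C1S (adjusted p = 0.0344) and SERPING1 (adjusted p = 0.00546) passed as well, and without restricted cow 6877 C1R did (adjusted p = 0.00728). These gains are to be read against an unstable background. The 65 elements that passed in the main fit became 0 to 1036 as each cow was left out. From day -65 to day -30 the mean of C2 moved by -2.05 in ad libitum and -0.64 in restricted cows, a difference of -1.41 ± 0.37 (SE, adjusted p = 0.981). That step starts from the day -65 difference of 1.30 between feeding levels, and on day -30 the difference was -0.11. From day -30 to day -14 the mean of C4A moved by -0.46 and 0.69, a difference of -1.16 ± 0.35 (SE, adjusted p = 0.324). Neither step passed on its own, and 0% of elements did in either (limma, 313 and 735 at an unadjusted p under 0.05).

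Of 43 other complement genes listed, the array carried 7: the C1q chains C1QA, C1QB and C1QC, factor D (CFD), properdin (CFP), the membrane inhibitor CD59, and ITGB2, a subunit of complement receptor 3. None of the 7 passed in the F test over days, which 43.4% of all elements passed. None passed in the comparison of days -14, 1 and 14 with days -30 and 28, where 44.8% of all elements did. Their median there was 0.14 and that of all elements 0.01. C1QA, C1QB and C1QC, partners of C1r and C1s in the C1 complex, differed by -0.21 ± 0.15, 0.06 ± 0.14 and 0.29 ± 0.16 (SE) there. Between days -30 and -14 C1QC rose by 0.69 ± 0.24 (SE, adjusted p = 0.026), the step in which C1R and C1S fell and 33.5% of all elements passed. Over days 1, 14 and 28 C1QC was lower in ad libitum cows by 0.87 ± 0.24 (SE, adjusted p = 0.0434), where 10.5% of all elements passed. On day -14 the C1q chains differed between feeding levels by -1.01, -0.76 and -0.87 (adjusted p from 0.0673 to 0.13).

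**Figure D5:**
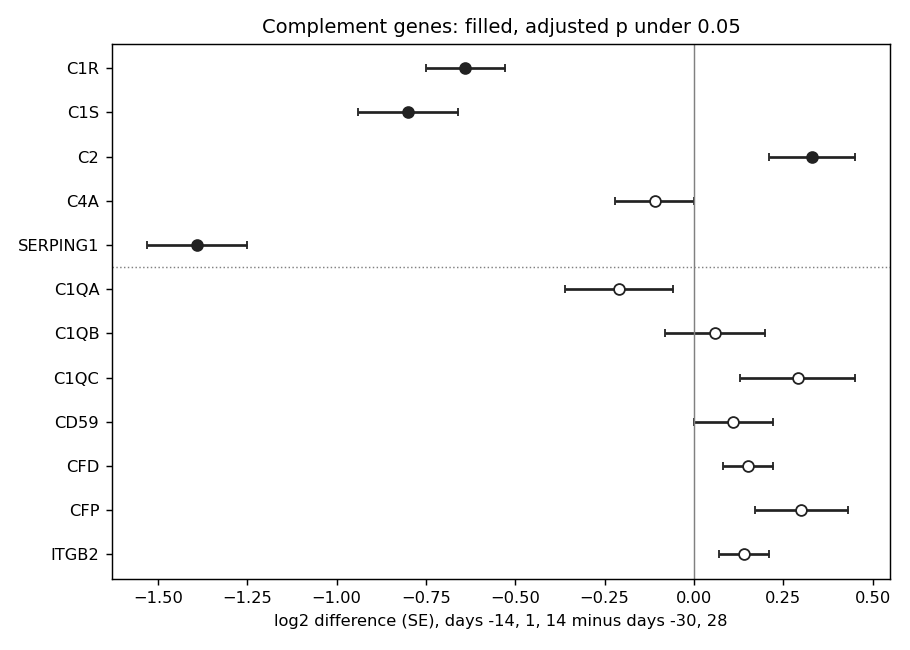
Log2 difference between days -14, 1 and 14 and days -30 and 28 with its SE (horizontal axis) for the 5 liver-made complement genes (above the dotted line) and the 7 other complement genes on the array; filled points had an adjusted p under 0.05 in limma. SERPING1, C1S and C1R lie between -1.39 and -0.64 and the 7 other genes between -0.21 and 0.30.

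Related and neighbouring genes were read for possible cross-hybridisation, since a cDNA element can bind transcripts of similar sequence. C1RL, a relative of C1R that lies 2 places from it, rose by 0.90 ± 0.09 (SE, adjusted p = 1.12e-10) on days -14, 1 and 14, opposite to C1R. Between feeding levels on day -14 C1RL (-0.68, adjusted p = 0.0347) and C1R (-0.71, adjusted p = 0.059) had the same sign and similar values, and cross-hybridisation between them was not tested. The C4A element cannot tell C4 gene copies apart, and the C2 element was not checked against the related factor B gene CFB, its next neighbour, which was not measured here. The other serpins measured, SERPINB1 (-0.01) and SERPINI1 (-0.30, adjusted p = 0.0119), had these differences between days -14, 1 and 14 and days -30 and 28. Of 4 measured genes of coagulation and fibrinolysis (PLAT, PLAU, PROS1 and TFPI) none passed there, where 44.8% of all elements did. PLAT was close to the threshold (-0.27, adjusted p = 0.0519).

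Genes of related signals and of other cell types were read in the same comparison of days, in which 44.8% of all elements passed. Interferon gamma is known to induce SERPING1, C2 and C4 genes. Of 16 measured genes of its signalling and targets 5 were higher and 2 lower on days -14, 1 and 14, with WARS1 at 0.74, PSMB8 at 0.53 and TAPBP at 0.47 among the higher and IRF8 at -0.36 among the lower, and the median of the list was 0.13. The 7 of 16 that passed are near the share of all elements. Of the liver transcription factors CEBPA, CEBPB and CEBPD none passed (-0.19, 0.11 and 0.12). Of the acute phase proteins, ceruloplasmin (CP) was higher by 0.72 and transferrin (TF), also a hepatocyte marker, lower by 0.94 ± 0.10 (SE, adjusted p = 6.98e-10). The other hepatocyte marker, APOA1, differed by -0.26 (adjusted p = 0.163).

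In the same comparison, where 23.8% of all elements were higher and 21% lower, 5 of 7 endothelial markers were lower, among them KDR (-1.18) and CDH5 (-1.03), and 1 was higher. Of 9 macrophage markers 3 were lower, CD14 (-1.48), CD5L (-1.13) and CD163 (-0.44), and AIF1 was higher (1.05), so that the 4 of 9 that passed are near the share of all elements. The neutrophil gene S100A12 was higher by 1.14 and 3 of 5 stellate cell and fibroblast markers were higher. The mean of the endothelial list per cow ranged from 1.31 to 1.84 on day -30 and from 0.91 to 1.34 on day 1, and that of the macrophage list from 2.47 to 3.23 and from 2.21 to 2.94. Between feeding levels on day -14, when 6.08% of all elements passed, 2 of 4 T and NK cell markers (CD3E at -0.99 and CD3D at -0.96), 1 of 9 macrophage markers (CD14 at -1.05) and 2 of 7 endothelial markers (ENG at -0.70 and PECAM1 at -0.68) were lower in ad libitum cows. The other 5 endothelial markers lay between -0.21 and 0.09. The part of these cell types in the complement differences was not tested.

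The genes most alike over the 53 cow-days were found by Pearson's r among 5261 elements with 1 symbol and complete values. The points share days, cows and arrays, so r is a description. SERPING1 was the closest match of C1S (r = 0.879), before SULT1A1 and GSTZ1. The closest matches of SERPING1 were GSTZ1 (r = 0.933), FAAH and LAMP1. Those of C1R were LOC338050 (r = 0.899), LOC616364 and RBP4. C2 had weaker matches, with MAN2B1 (r = 0.683), PINK1 and C3H1orf210 first, and C4A was closest to NECTIN2 (r = 0.796), TMEM259 and IGFBP4.

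Over the 29 cow-days of days -65, -30, 28 and 49, which leave out the days of the trough, C1R, C1S and SERPING1 were each other's closest matches: C1S and SERPING1 had r = 0.87, C1R and SERPING1 r = 0.86, and C1R and C1S r = 0.822. C1R ranked second for C1S and for SERPING1. C2 and C4A had r = 0.754 there and 0.605 over all 53 cow-days. Over all 53 cow-days C1R was less close, with r = 0.763 for SERPING1 (rank 23 of 5261 elements) and r = 0.725 for C1S (rank 40). With the mean of each diet-day group removed, r over the 53 cow-days was 0.71 for C1S with SERPING1 and 0.387 for C1R with SERPING1. It was 0.284 for C1R with C1S and 0.62 for C1R with C4A.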

How the data were processed

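The authors deposited, per the file headers and labels, 1 value per spot for 106 arrays of 16416 spots: the log2 ratio of Cy5 over Cy3, scanned on a Scanarray 4000 and read with GenePix 4.0, per the labels. The log base was read from the values. Background correction and normalization are not given in the sources used here, and intensities were not used here. A value was missing for 1.23% of spots. The sign of each array was set by the dye in its title so that values read as liver over reference, and its median was subtracted. The 2 spots of an element and then the 2 orientations of a cow-day were averaged, and a cow-day counted as 1 sample. Elements with at least 2 cows in each of 14 diet-day groups were tested (8061).

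Days and days by diet were compared with limma 3.58.1 (statmod 1.5.0, R 4.3.3) in a fit of 14 diet-day means, cow entering as a random effect (correlation 0.0176), because the cow numbers in the labels pair samples across days; diets were weighted equally. Means per cow were tested with limma and, for each member, an exact permutation of 70 assignments, two-sided. P-values were adjusted by Benjamini-Hochberg over all elements, threshold 0.05. Symbols came from the platform annotation, updated through a RefSeq gene table of ARS-UCD2.0. Fits were tested on simulated data. The members are all described, up to 4 genes of each other list with the smallest p in a comparison are named, and 3 most correlated genes per member. Members, lists and tests were chosen with earlier results of these data known. The number of cows limits the precision. Alternatives were centring, scaling, dye orientation, missing-value filter, block, weights, agreement of orientations as covariate or filter, and each cow left out; the 0.7 agreement filter and the 2 change contrasts by diet were added after seeing the data.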

Additional observations from a re-analysis of the deposited data

Results flagged for a closer look

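Of 60 groups of 4 cows tested over the 5 genes, 3 held a cow far from its group, and chance gives about 1 in 20. C4A on day -30 was 2.83 in ad libitum cow 7187, with the nearest other cow at 2.57. SERPING1 on day -14 was 2.53 in ad libitum cow 7161, with the nearest at 1.93, and on day 1 it was 2.41 in restricted cow 6877, with the nearest at 2.07. The course over days differed between feeding levels for C2 (limma interaction F test, adjusted p = 0.0442) and C4A (adjusted p = 0.0446), and both calls were lost in most alternatives.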

How the results depend on the processing

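Over 21 alternatives, 2141 results kept their side of the threshold, 68 lost a call, 31 gained one and 5 reversed. Reversed means a change of sign in a result called in the main or the alternative fit. Of 1764 values that were not called in the main fit, 108 changed sign. Those without a call in the alternative either are among the 2141. The 5 reversals were the step from day -30 to -14 of C2 with equal spread (0.00) and of C1R with liver in Cy5 alone (0.12), the step from day 14 to 28 of C2 with equal spread (0.66), and the difference of days -14, 1 and 14 from days -30 and 28 of C4A without centring (0.39) and of C2 with equal spread (-0.39). The cause was not tested. SERPING1 kept its calls in each comparison of days that it passed, and C2 kept its fall from day -65 to -30.

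The number of the 5 genes called moved by over 1.5 times as follows. Smaller moves, from 4 to 3 or 5, also occurred: it was 5 in the F test over days with equal spread, with array weights and with cow as a fixed replicate block. It was 3 for day -14 against -30 with equal spread, quantile normalization, Cy3 alone, the 0.7 filter, the covariate and array weights. For days -14, 1 and 14 against days -30 and 28 it was 3 without centring and with Cy3 alone and 5 with equal spread. Without centring it was 2 in the F test over days, 2 for day -14 against -30 and 0 for feeding level on day 14. With equal spread it was 5 for day 28 against 14, 1 for day 28 against -30, and 0 for feeding level on days -14 and 14. With quantile normalization it was 1 for day 28 against 14 and 0 for feeding level on day 14. With liver in Cy3 alone it was 0 for feeding level on days -14 and 14. With liver in Cy5 alone it was 2 for day -14 against -30, 1 for day 28 against 14, 2 for feeding level on day -14 and 1 after calving. With elements complete on every array it was 2 for feeding level on day -14 and 1 after calving. With array weights it was 1 for day 1 against -14, 1 for feeding level on day -65, 1 after calving and 4 for the interaction. Without cow-days of agreement under 0.7 it was 1 for day 28 against 14 and 0 for feeding level on day 14, and with agreement as a covariate 1 for day 28 against 14. The interaction count was 1 without cow-days of agreement under 0.6 and 0 in 7 settings: without centring, with equal spread, quantile normalization, either orientation alone, the 0.7 filter and the covariate. With no replicate block for cow it was also 0 (adjusted p = 0.0515 for C2 and 0.0549 for C4A); with cow as a fixed replicate block C4A passed the F test over days (adjusted p = 0.0404).

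Leaving out each cow moved the number of the 5 genes called, and of all elements called (in brackets), as follows. The F test over days gave 4 to 5 (2432 to 3608). Day -14 against -30 gave 3 to 4 (1798 to 2995). Days -14, 1 and 14 against days -30 and 28 gave 3 to 4 (3100 to 3672). Day 28 against 14 gave 1 to 2 (409 to 1091). Feeding level gave 1 to 2 (51 to 1851) on day -14 and 0 to 1 (3 to 1160) on day 1. It gave 0 to 1 (333 to 1468) on day 14 and 0 to 1 (647 to 952) as the mean after calving. The interaction gave 0 to 4 (0 to 1036).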
